A study of Mus musculus with 3 samples.

Results

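Heparan sulfate proteoglycans were examined across 3 samples of adult renal corpuscle, the filtering unit of the kidney. The set holds 37 genes chosen by name: 13 encode core proteins and 24 encode enzymes that build, sulfate or trim the chains. A value was found for 36 of them among the 19938 genes that the array measured, each from 1 probe set that the platform annotation gives to that gene alone; Ndst1 was not analysed here. The samples came from wild-type CD-1 male mice of 7 to 9 weeks, each a pool of about 2 kidneys, and all 3 belong to 1 group with no treatment. Minced kidneys were digested with collagenase A (0.5%, 15 minutes, 37 °C) and passed through filters of 100, 70 and 40 µm, with no sorting of cells given. Each sample thus mixed cells of the corpuscle with whatever tubule pieces were carried along. RNA was amplified in 1 round and read on Affymetrix arrays as a log2 signal per probe set. With 1 group the design compares each gene with background and the arrays with each other, and no condition was tested. The 3 arrays limit the precision of every value.

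Heparan sulfate is a long, negatively charged sugar chain carried on the serines of a small number of core proteins. Xylosyltransferases begin a linker on the serine, the exostosins lengthen the chain by alternating sugars, and the N-deacetylase/N-sulfotransferases, the epimerase and the O-sulfotransferases then modify it in patches to which growth factors, protease inhibitors and matrix proteins bind. In the glomerulus such chains sit in the basement membrane, mainly on agrin and perlecan, and on the surfaces of podocytes and endothelial cells, where syndecans span the membrane and glypicans are held by a lipid anchor.

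The labelled tissue was checked with marker genes. All markers with a value were detected for podocytes (6 of 6, among them Nphs1, Wt1 and Podxl), endothelial cells (7 of 7), mesangial cells (5 of 5) and parietal epithelium (4 of 4). The parietal markers Pax8, Cldn1 and Ncam1 lay only 0.45, 0.66 and 0.75 log2 above background, however. Cd24a, with a mean linear signal of 8060, made up most of the parietal sum given below. Markers of other cells were detected as well, to be read beside the 58.9% of all genes that were detected: 6 of 7 proximal tubule markers were detected, with Cubn not, 4 of 6 of the distal nephron segments, with Slc12a1 and Scnn1b not, 5 of 6 of leukocytes, with Adgre1 not, 4 of 6 of fibroblasts, with Dcn and Lum not, and 4 of 5 of smooth muscle, with Cnn1 not. The counts of 4 of 6 (66.7%) are near the share of all genes. The summed linear signals of the lists on replicates 1, 2 and 3 were 18114, 17415 and 17331 for podocytes, 21007, 19843 and 20192 for endothelium and 2700, 3149 and 2925 for proximal tubule. They were 14250, 14833 and 14950 for mesangial cells, 8797, 8797 and 8280 for parietal epithelium, 1985, 1948 and 2266 for the distal segments, 1824, 2131 and 1467 for leukocytes, 1368, 1392 and 1342 for fibroblasts and 2858, 3364 and 4000 for smooth muscle. Kap and Myl9, with mean linear signals of 1561 and 2272, made up most of the proximal tubule and smooth muscle sums. In such mixed tissue a low signal may mean few cells of a type or little RNA per cell, and these cannot be told apart. Which cells gave the signals below was not tested.

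Most of the heparan sulfate genes were expressed above background. The 1212 probe sets of olfactory and vomeronasal receptors, which the kidney should hardly use, set the background: their 95th percentile was taken array by array and lay at 6.90, 6.96 and 6.92 log2 on replicates 1, 2 and 3. A gene was called detected when its signal exceeded this level (limma, one-sided, Benjamini-Hochberg adjusted p under 0.05). Of the 36 genes 28 were detected (77.8%), beside 58.9% of all genes. Detected were 11 of 13 core proteins and 17 of 23 enzymes, and each of the 28 lay above background on all 3 arrays, as did 59.1% of all genes. The median of the 36 was 1.12 log2 above background, against 0.37 for all genes. A linear signal, which is 2 to the power of the log2 value, over 150 on every array was reached by 27 (51.3% of all genes did so). Over 500 were 7 genes (17.2% of all genes), and over 1000 were 5 (7.59% of all genes): Sdc2, Sdc4, Gpc3, Ext2 and Hs3st3a1. Each probe set has its own affinity, so the order of these signals does not rank the transcripts.

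The promoters of 27 of the 36 genes could be matched to RefSeq starts (GRCm38.p6), with 33 windows of 250 bases directly before a start, because some genes have more than 1. Without a window were the detected genes Sdc2, Gpc1, Gpc6, Xylt1, Ext1, Extl3, Hs3st6 and Sulf1, and Ndst4, which was not detected. The GC box, GGGCGG on either strand, is the core of the site bound by Sp1-type factors and is frequent in promoters that many tissues use. It occurred in 19 of 24 windows of detected genes (79.2%) and in 3 of 9 windows of genes not detected (33.3%). These windows belong to 20 and 7 genes, and a gene with more than 1 start counts more than once. Over all genes of the array it occurred in 56.3% of windows of detected genes and in 27.5% of those not detected, and in 32.7% of all RefSeq windows. CpG dinucleotides, of which each GC box contains 1, had a median of 17.5 per window for detected heparan sulfate genes and 16 for those not detected. For all genes these medians were 15 and 4. The heparan sulfate genes without detectable signal thus had CpG counts near those of detected genes, but their windows ran from 1 CpG at a start of Ndst3 to 36 at Hs6st3, which has no GC box. Matches of letters are a description and show no binding.

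**Figure D1:**
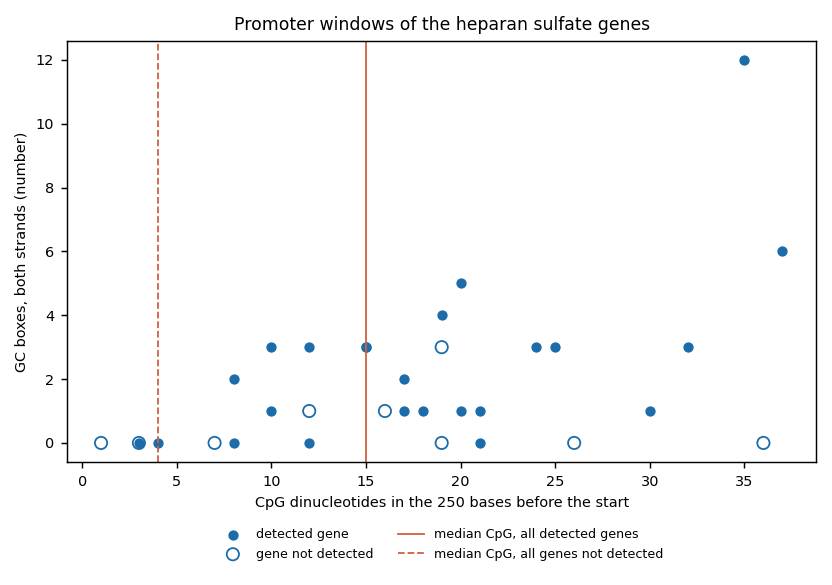
CpG dinucleotides (horizontal axis) and GC boxes on both strands (vertical axis) in each of the 33 promoter windows of 250 bases, with filled points for detected genes and open rings for genes not detected; windows with equal counts lie on each other. Orange lines give the median CpG count of all detected genes, 15, and of all genes not detected, 4, and 6 of the 9 open rings lie at 0 GC boxes.

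Windows of 4 detected genes are shown first, because they include the syndecan and the sulfotransferase of high signal discussed here, and those of 2 undetected relatives follow. They were chosen by name and do not stand for all 33 windows, where 19 of 24 of detected and 3 of 9 of undetected genes held a box. Among windows not shown, those of the detected genes Ext2 and Extl1 hold 0 boxes and that of Gpc2, not detected, holds 3. Capitals mark GC boxes, GGGCGG or, from the opposite strand, CCGCCC. Hspg2 (chr4:137468553-137468802, plus strand) holds 5 boxes, Sdc4 (chr2:164443189-164443438, minus strand) holds 4, Hs3st3a1 (chr11:64435082-64435331, plus strand) holds 1, Hs3st3b1 (chr11:63922285-63922534, minus strand) holds 2, Gpc5 (chr14:115091965-115092214, plus strand) holds 1 and Hs3st1 (chr5:39644632-39644881, minus strand) holds 0.
Hspg2: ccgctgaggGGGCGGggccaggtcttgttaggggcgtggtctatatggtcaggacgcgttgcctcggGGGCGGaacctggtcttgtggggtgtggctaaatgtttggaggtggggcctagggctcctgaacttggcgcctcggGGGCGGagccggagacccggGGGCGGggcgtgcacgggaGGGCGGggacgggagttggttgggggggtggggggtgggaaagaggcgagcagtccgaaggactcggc
Sdc4: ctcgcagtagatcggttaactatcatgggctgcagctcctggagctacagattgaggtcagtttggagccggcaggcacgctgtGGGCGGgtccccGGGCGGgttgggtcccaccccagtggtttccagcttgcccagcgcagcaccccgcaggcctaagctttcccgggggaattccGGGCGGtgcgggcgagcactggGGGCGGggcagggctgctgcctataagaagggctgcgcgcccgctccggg
Hs3st3a1: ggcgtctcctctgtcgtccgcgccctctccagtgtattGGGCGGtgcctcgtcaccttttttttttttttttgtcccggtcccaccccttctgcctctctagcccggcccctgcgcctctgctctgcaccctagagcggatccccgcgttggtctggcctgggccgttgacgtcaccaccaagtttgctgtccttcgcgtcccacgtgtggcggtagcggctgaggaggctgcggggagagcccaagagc
Hs3st3b1: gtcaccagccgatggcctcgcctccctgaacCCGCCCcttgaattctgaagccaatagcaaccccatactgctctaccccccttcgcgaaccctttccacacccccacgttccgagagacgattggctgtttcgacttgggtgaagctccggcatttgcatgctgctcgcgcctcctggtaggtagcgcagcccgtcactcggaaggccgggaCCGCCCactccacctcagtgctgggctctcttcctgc
Gpc5: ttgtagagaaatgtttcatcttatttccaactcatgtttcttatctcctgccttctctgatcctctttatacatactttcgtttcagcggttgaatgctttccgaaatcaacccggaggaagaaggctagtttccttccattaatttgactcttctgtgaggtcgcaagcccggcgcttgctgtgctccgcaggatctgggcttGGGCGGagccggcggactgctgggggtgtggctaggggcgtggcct
Hs3st1: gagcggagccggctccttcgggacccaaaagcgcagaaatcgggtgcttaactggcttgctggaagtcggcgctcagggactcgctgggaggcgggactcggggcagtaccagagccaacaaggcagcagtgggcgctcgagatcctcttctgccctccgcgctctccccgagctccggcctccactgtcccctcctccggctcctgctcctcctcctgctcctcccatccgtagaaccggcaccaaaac

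All 3 core proteins of basement membranes were detected, beside 58.9% of all genes. Agrn encodes agrin, the main heparan sulfate proteoglycan of the glomerular basement membrane. It read 8.58, 8.64 and 8.58 log2 on replicates 1, 2 and 3, which is 1.68 above background. Hspg2, which encodes perlecan, held 8.02 log2 on all 3 arrays, 1.09 above background. Col18a1 encodes collagen XVIII, the source of the fragment endostatin, and held 8.15 on all arrays. An SD of 0 is not an error of 0 here: 54.2% of all genes, and 14 of these 36 (38.9%), have the same value on the 3 arrays, and another 14 have it on 2 of them; 8 have 3 different values (22.2%, beside 18.3% of all genes).

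All 4 syndecans were detected, where 58.9% of all genes were. Sdc2 read 10.51, 10.43 and 10.51 log2 on replicates 1, 2 and 3, a mean linear signal of 1430. Sdc4, a partner of integrins in focal adhesions, read 10.18, 10.28 and 10.35, or 10.27 ± 0.08 (SD, n = 3). These lay 3.56 and 3.35 log2 above background, and all 6 readings exceeded a linear signal of 1000. Sdc3, best known from nerve tissue, held 8.61 on every array. Sdc1, the syndecan typical of epithelia, read 8.16, 7.98 and 7.96, so replicate 1 was the highest by 0.18 log2 or more and all 3 values stayed above background. 

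Of the 6 glypicans 4 were detected (66.7%), near the 58.9% of all genes. Gpc3, whose human counterpart is mutated in an overgrowth syndrome with enlarged kidneys, read 10.10, 10.06 and 10.30 log2 on replicates 1, 2 and 3, or 10.15 ± 0.13 (SD, n = 3) and 3.23 above background. Its neighbour on the X chromosome, Gpc4, read 7.64, 7.67 and 7.67. Gpc1 read 7.84, 7.84 and 7.85 and Gpc6 read 7.79 on each array. These 3 lay 0.74 to 0.92 log2 above background, a linear signal of 202 to 229. Gpc6 is adjacent to Gpc5 on chromosome 14, yet Gpc5 was not detected, at 5.81 log2 on all arrays, -1.12 from background and higher than 65.5% of the receptor probe sets. Gpc2, a glypican of the developing nervous system, lay at 6.93 on every array, 0.01 above the mean background, and did not pass the test (limma, adjusted p = 0.573). Its value was above the level of replicates 1 and 3 and below that of replicate 2.

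**Figure D2:**
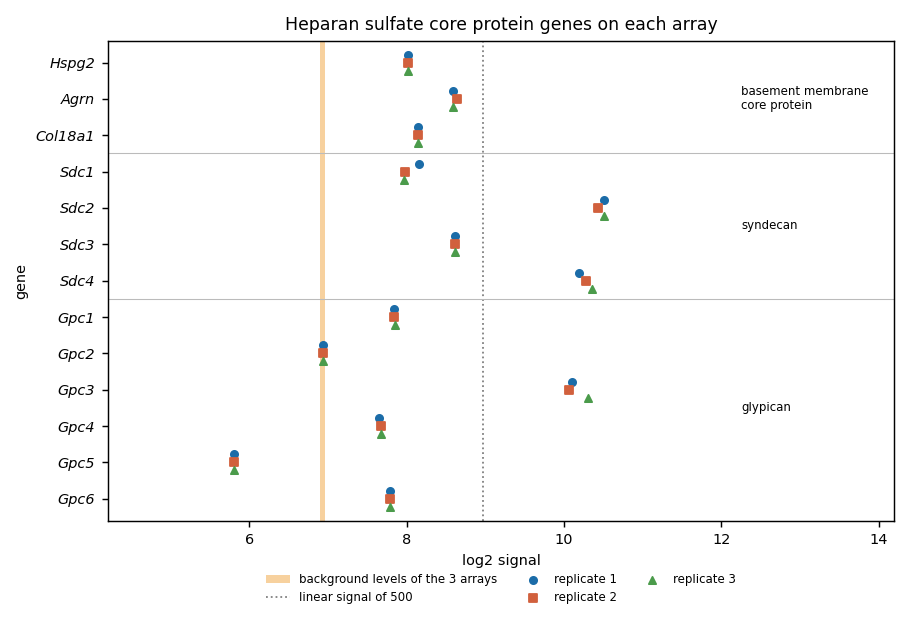
log2 signal (horizontal axis) of the 13 core protein genes (rows) on replicates 1, 2 and 3, drawn slightly apart in each row; orange marks background, which ran from 6.90 to 6.96, and the dotted line marks a linear signal of 500. Sdc2, Sdc4 and Gpc3 lie above 10 on all 3 arrays, Gpc2 lies in the band and Gpc5 at 5.81.

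Enzymes that start and lengthen the chain were all detected, where 58.9% of all genes were. Xylt1 and Xylt2, which place xylose on the serine, were at 7.87 on each array and at 7.55, 7.60 and 7.55 log2. Xylt2 was not detected with background at the 99th percentile of receptors. Ext1 and Ext2 encode the subunits of the polymerase. Ext2 read 9.97, 10.01 and 10.01, or 3.08 above background, and Ext1 read 9.56, 9.28 and 9.30, or 9.38 ± 0.15 (SD, n = 3). Ext1 was thus higher on replicate 1 than on the others, by 0.27 log2 over the lowest. The related Extl3, which adds the first N-acetylglucosamine of the chain, held 8.27, Extl2 held 8.07 and Extl1 held 7.40 on all arrays. Extl1, 0.47 above background, did not exceed it when background was set at the 99th percentile of receptors.

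In several modifying families some isozymes were detected and others lay at background. Of the N-deacetylase/N-sulfotransferases, which open the chain to all later sulfation, Ndst2 held 8.11 log2 on every array and was 1.19 above background. Ndst3 held 6.54, and Ndst4 read 4.44, 4.60 and 4.75; neither was detected. These genes lie close together on chromosome 3, with 3 protein-coding genes between them. The signal of Ndst4 exceeded that of 25.6% of the receptor probe sets, so differences between its arrays are differences within background.

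Glce, the epimerase that turns glucuronic into iduronic acid, and Hs2st1, which sulfates the product, are each the only gene of their kind in the set. Glce read 8.52, 8.52 and 8.44 log2 and Hs2st1 read 8.67, 8.67 and 8.75, or 1.57 and 1.78 above background. Of the 6-O-sulfotransferases Hs6st1 was detected, with 7.43, 7.32 and 7.32, a mean linear signal of 164. It no longer passed with the 99th percentile of receptors or a fixed signal of 150 as background, and with these no 6-O-sulfotransferase was detected. Hs6st2 read 5.37, 5.29 and 5.34 and Hs6st3 held 6.64, and neither was detected.

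Among the 3-O-sulfotransferases, which make the rarest modification of the chain, 4 of 5 were detected, beside 58.9% of all genes. Hs3st3a1 had the signal farthest above background of the 36 genes, with 11.59, 11.56 and 11.30 log2 on replicates 1, 2 and 3. Its mean was 11.49 ± 0.16 (SD, n = 3), a linear signal of 2869 and 4.56 log2 above background. All 3 values were far from background, and replicate 3 was lower than the others by more than 0.25 log2.

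Hs3st3b1, a close relative of Hs3st3a1 from which it is separated by 1 protein-coding gene on chromosome 11, read 8.45, 8.45 and 8.47. The catalytic parts of these enzymes are nearly identical, and how far each probe set also binds the other transcript was not tested. Hs3st6 held 8.22 on each array and Hs3st2 read 7.26, 7.15 and 7.26, only 0.30 above background and with a mean linear signal of 150. Hs3st2 was not detected with the 99th percentile or a fixed signal of 150 as background. Hs3st1, which makes the antithrombin-binding site of heparin, was not detected, at 6.15, 6.13 and 6.15. Its promoter window holds 19 CpG and 0 GC boxes, beside 20 and 1 for Hs3st3a1 and 17 and 2 for Hs3st3b1.

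Of the 3 enzymes that act on finished chains outside the cell 2 were detected, both of them sulfatases (66.7%, near the 58.9% of all genes). Sulf1 and Sulf2 remove 6-O-sulfate groups from heparan sulfate and so change its binding of growth factors. Sulf1 read 10.06, 9.97 and 9.90 log2, or 9.98 ± 0.08 (SD, n = 3) and 3.05 above background. Sulf2 read 8.23, 7.97 and 7.97. Hpse, the heparanase that cuts the chain, held 6.29 on all arrays and was not detected, with a signal above that of 81.4% of the receptor probe sets.

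**Figure D3:**
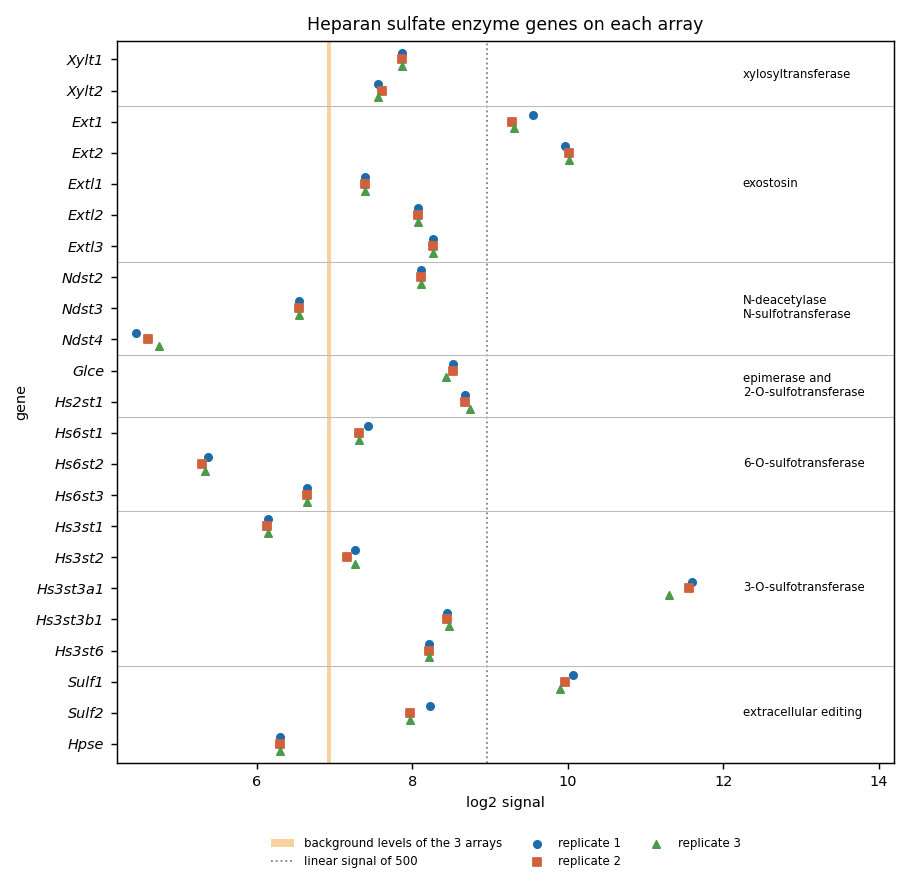
log2 signal (horizontal axis) of the 23 enzyme genes with a value (rows, by step of synthesis) on replicates 1, 2 and 3, drawn slightly apart; orange marks background, which ran from 6.90 to 6.96, and the dotted line marks a linear signal of 500. Ext1, Ext2, Hs3st3a1 and Sulf1 lie right of the dotted line, and Ndst3, Ndst4, Hs6st2, Hs6st3, Hs3st1 and Hpse lie left of the band.

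The arrays differed by at most 0.31 log2 for these genes. The range, the highest minus the lowest log2 signal, exceeded 0.5 for 0 of 36 genes, where 1.70% of all genes did so. In a set of 36 genes a count of 0 is near that share. It exceeded 0.25 for 4 genes (11.1%, beside 7.38% of all genes): Ndst4, Hs3st3a1, Ext1 and Sulf2. Of these Ndst4 lay within background, which leaves 3 detected genes. The median SD of the 28 detected genes was 0.028 log2, against 0.0094 for all detected genes. Among genes with 3 different values it was 0.12 for the 6 detected here and 0.094 for all 3013 detected. Replicate 1 alone was highest for 7 of the 36 genes, replicate 2 for 2 and replicate 3 for 6. These counts include genes not detected, such as Hs6st2 on replicate 1 and Ndst4 on replicate 3. The same counts over all genes were not made, so they show no trait of this set. The mean deviation from the 3-array mean on replicates 1, 2 and 3 was 0.0126, -0.0103 and -0.0024 log2 for the 36 genes. For all genes it was 0.0040, 0.0002 and -0.0043, also highest on replicate 1. Ext1, Sulf2, Sdc1 and Sulf1 were highest on replicate 1, whereas Gpc3 and Sdc4 were highest on replicate 3. The summed marker signals differed between arrays too, and within a list some genes moved together and others did not. The podocyte sum was highest on replicate 1 mainly through Cdkn1c, at 12.56, 12.39 and 12.38 log2, while Wt1 and Podxl had 1 value on all arrays. Smooth muscle markers Acta2, Myh11 and Myl9 were all lowest on replicate 1, and Tagln had 1 value on all arrays. Their peaks lay on different arrays, with Myh11 at 7.99, 8.59 and 8.37 and Myl9 at 10.95, 11.03 and 11.48. Proximal tubule markers Kap, Slc34a1, Aqp1 and Lrp2 were lowest on replicate 1, whereas Slc5a2 was lowest on replicate 2. Leukocyte markers Ptprc, Lyz2 and Tyrobp were lowest on replicate 3, whereas Csf1r was highest on replicate 2 and Cd68 did not change. Of the distal markers Umod rose from replicate 1 to 3, at 8.77, 9.18 and 9.78, as did Slc12a1, which was not detected. Slc12a3 fell, at 8.53, 8.51 and 7.95, and Calb1 was lowest on replicate 2. The part of cell composition in the differences between arrays was not tested.

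**Figure D4:**
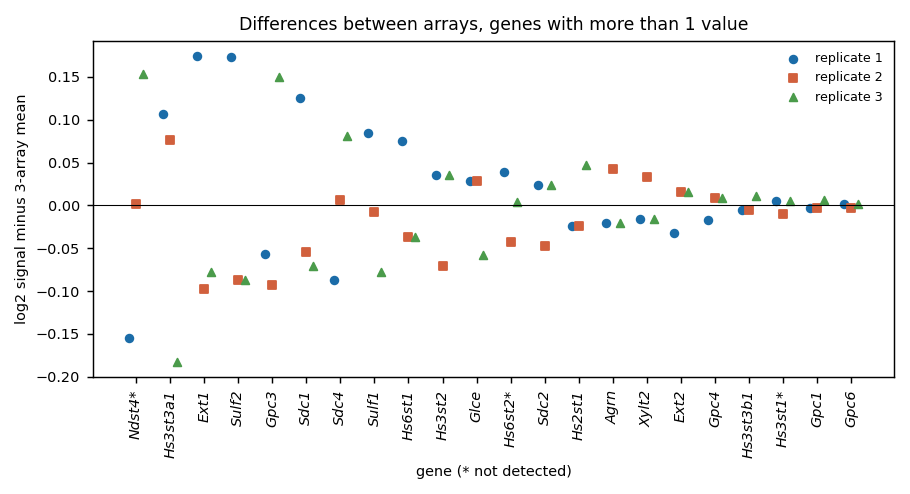
log2 signal on replicates 1, 2 and 3 minus the mean of the 3 arrays (vertical axis) for the 22 genes with more than 1 value (horizontal axis, by falling range; asterisks mark genes not detected). Ext1, Sulf2 and Sdc1 stand out above the mean on replicate 1, Gpc3 on replicate 3, and Hs3st3a1 lies below it on replicate 3.

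Genes that supply or share the pathway were detected in 54 of 81 cases (66.7%), beside 58.9% of all genes. Linkage region genes, which complete the linker after xylose, were detected in 4 of 5 cases. Fam20b, the kinase that phosphorylates the xylose, read 9.16, 9.57 and 9.45 log2, and B3gat3, which adds the glucuronic acid of the linker, held 8.41. B3galt6 and B4galt7 were 0.29 and 0.07 above background, and Pxylp1, the phosphatase acting on that xylose, was not detected. With a fixed signal of 150, or the 99th percentile of receptors, as background 2 of the 5 were detected.

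Genes of precursor supply were detected in 9 of 11 cases (81.8%), beside 58.9% of all genes. Ugp2, Ugdh and Uxs1, which make UDP-glucose, UDP-glucuronic acid and UDP-xylose in turn, lay 3.05, 2.01 and 1.94 log2 above background. Of the enzymes that make the sulfate donor PAPS, Papss1 read 8.46, 8.46 and 8.28 and was detected, and Papss2, at 6.64, 6.73 and 6.64, was not. The PAPS transporter gene Slc35b3 read 8.91, 8.87 and 8.47, and the nucleotide sugar transporter gene Slc35d2 was not detected. Genes of lysosomal breakdown of the chain were detected in 7 of 8 cases (87.5%). Among them were Hgsnat and Ids, 2.56 and 2.37 above background, and Naglu was not detected. Of the remaining 3-O-sulfotransferases and heparanase 2, Hs3st4 was 0.21 above background and detected, and Hs3st5 and Hpse2 were not.

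The chondroitin and dermatan sulfate branch uses the same linker. Its synthesis genes were detected in 13 of 16 cases (81.2%), among them Chst14 at 9.31, 9.31 and 9.35 and Csgalnact2 at 8.96, 8.94 and 8.94 log2. Of the heparan sulfate enzymes 17 of 23 were detected (73.9%), but that list also holds Sulf1, Sulf2 and Hpse, which act on finished chains. The difference between these unlike lists was not tested. Chst3, Ust and Chsy3 were not detected. Core proteins of that branch were detected in 5 of 12 cases (41.7%), beside 58.9% of all genes. Of the heparan sulfate core proteins 11 of 13 were detected (84.6%). The difference between these core protein lists was likewise not tested, and it depends on which genes were listed. Detected in the chondroitin and dermatan sulfate list were Srgn, Bgn, Cspg4, Esm1 and Ncan. Srgn, the granule proteoglycan serglycin, read 11.95, 11.92 and 11.98, and Bgn, which encodes biglycan, read 11.14, 11.13 and 11.14. Cspg4, Esm1 and Ncan each lay less than 1 log2 above background. Vcan, Bcan, Acan, Dcn, Cspg5, Ptprz1 and Epyc were not detected.

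Proteins that carry heparan sulfate only at times were detected in 2 of 6 cases, where 58.9% of all genes were: Nrp1, a co-receptor for VEGF, held 12.31 log2 and Tgfbr3, or betaglycan, held 9.41 on all arrays. Cd44 and the testican genes Spock1, Spock2 and Spock3 were not detected. Ligands and inhibitors that bind heparin were detected in 13 of 20 cases (65%), near the 58.9% of all genes. Ptn lay 5.71 log2 above background, Vegfa 4.10, Fgf1 3.20 and the coagulation inhibitor gene Tfpi 2.61, whereas Fgf2, Hgf, Fgf7 and Slit2 were not detected. Vegfa read 11.12, 10.95 and 11.00 on replicates 1, 2 and 3, and Fgf1 read 9.89, 10.21 and 10.27, lower on replicate 1 than on the others.

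**Figure D5:**
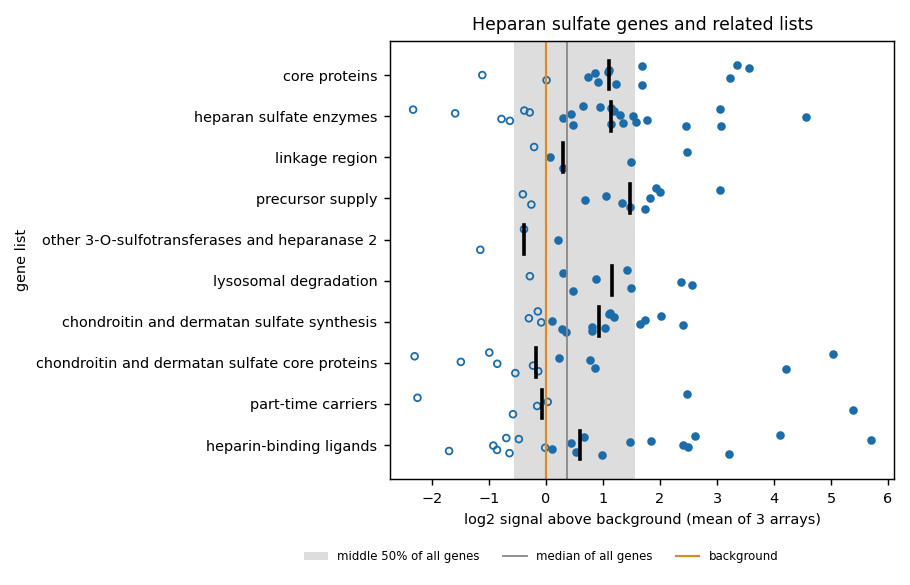
Mean log2 signal above background over 3 arrays (horizontal axis) of each gene in the heparan sulfate set, split into core proteins and enzymes, and in 8 related lists (rows); detected genes are filled, the others open, and black bars give list medians. The grey band holds the middle 50% of all genes around their median of 0.37; the medians of the core proteins and of the enzymes are 1.11 and 1.13, and that of chondroitin and dermatan sulfate core proteins is -0.18.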

How the data were processed

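The 3 arrays of 1 group were analysed from 1 table of 35557 probe sets. The deposited values are log2 signals made by the authors, with Affymetrix Expression Console as the tool listed in the submitters' processing notes; its version and the summary method are not given in the sources used here. Values ran from 2.36 to 14.40, array medians were 7.11, 7.11 and 7.09, and no normalization was added. The table holds 0 columns of other samples. Probe sets with 1 symbol in the platform annotation (21789; 1621 have several and 12147 are unnamed here) gave 19938 genes, each by its probe set of highest mean.

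Signal minus background was fitted with limma 3.58.1 in R 4.3.3 (lmFit with an intercept, eBayes with a trend on level), and one-sided p-values were adjusted over all genes by Benjamini-Hochberg. Standard errors followed the level rather than the gene's own spread, so the call is in effect a cut just above background. These errors come from the spread between samples pooled over genes, 54.2% of which have 1 value on all 3 arrays. The p-values thus do not measure the spread of a given gene. That pooled spread may be technical, since the labels do not say that the pools came from separate days or litters. Of the 1196 receptor genes 54 were themselves called. The genes and lists were chosen with earlier results of these data known; every gene of the set is named, with up to 4 detected and 4 undetected genes of each related list, plus further detected or undetected members named after their values were seen. Alternatives changed the background level, the prior, the detection rule, the probe set choice, the normalization, the genes fitted and the arrays used. Promoter windows came from RefSeq (GRCm38.p6); protein sequences were not used here.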

Additional observations from a re-analysis of the deposited data

How the results depend on the processing

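The detected count of 28 of 36 was also 28 without the trend, by the rule of exceeding background on each array, with the mean or the lowest probe set (each gene of the set has 1), with quantile normalization and without any 1 replicate. With dim genes left out of the fit it was 28 of 35, Ndst4 being left out, and 64.8% of all genes fitted were called. It was 24, 26 and 34 with the 99th percentile of receptors, a fixed signal of 150 and the receptor median as background, where 41.7%, 50.2% and 90.4% of all genes were called. At the 99th percentile Extl1, Hs6st1 and Hs3st2 lay at -0.16, -0.20 and -0.33 log2 from background, and Hs3st2 lay at -0.0028 from a signal of 150. Above the receptor median Gpc5 lay 0.44, Ndst3 1.17, Hs6st3 1.27, Hs3st1 0.77 and Hpse 0.92. Hs6st1 at 0.13 above 150 and Xylt2 at 0.01 above the 99th percentile no longer passed the test, and Gpc2 passed it at 1.56 above the receptor median. Related genes detected were 40, 45 and 78 with the 99th percentile, the fixed signal and the receptor median, and at the first and second of these no other 3-O-sulfotransferase or heparanase 2 was detected. These changes follow from the level set, and with the fixed signal and the receptor median the fitted spread changed as well. Without 1 replicate the counts over 150, 500 and 1000 ranged from 27 to 28, 7 to 7 and 5 to 6, the count with a range over 0.5 log2 was 0 each time, and related genes detected ranged from 51 to 55, against 54. With quantile normalization 4 genes exceeded 1000. The count of 0 genes with a range over 0.5 log2 was 4 over 0.25 log2 and 0 over 1 log2. No paired analysis was possible because only 1 group was sampled. Genes within about 0.5 log2 of background, such as Extl1, Hs6st1 and Hs3st2, are limited by signal over background.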
